A study of Mus musculus with 13 samples.

Results

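The miRNAs described here are the 10 mature arms cut from the hairpins of miR-431, miR-433, miR-127, miR-434 and miR-136, which lie antisense to the imprinted gene Rtl1. They were chosen by name, but earlier results of these data were known when the choice was made. All 10 were among the 1079 mouse miRNAs on the array, 9 of them were detected in each of 13 tumours, and miR-127-5p was detected in none. The tumours were primary abdominal neuroblastomas of TH-MYCN mice, in which the tyrosine hydroxylase promoter drives MYCN in sympathetic neural crest cells and tumours form without further treatment. In 7 of the tumours caspase-8, the initiator protease of death receptor apoptosis, was deficient and the mouse had bone marrow metastasis. In the other 6, caspase-8 was wild type and there was no metastasis to bone marrow. Both groups carry the MYCN transgene. Since caspase-8 status and metastasis changed together, the part of each cannot be told apart. The labels call the tumours biological replicates and give no time point or treatment.

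Rtl1 (retrotransposon-like 1, also Peg11) belongs to the Dlk1-Dio3 imprinted domain of distal mouse chromosome 12. The paternal allele expresses the protein-coding genes Dlk1, Rtl1 and Dio3, and the maternal allele expresses non-coding RNAs that include Meg3, the transcript antisense to Rtl1, and the hosts of the large miR-379 to miR-410 cluster. Because the antisense hairpins are read from the opposite strand of Rtl1, their products pair perfectly with its transcript, and in the mouse they direct its cleavage. Rtl1 is needed for the fetal capillaries of the mouse placenta, and the miRNAs of the domain are abundant in embryo, placenta and brain. A miRNA selects most of its targets through its seed, bases 2 to 8 from the 5′ end.

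The mature sequences are shown to let the seeds be compared, since the 10 arms lie in 1 domain but would select different targets. They are given 5′ to 3′ with the seed in capitals, from RefSeq (GRCm38.p6), which matched all 10 names.
mmu-miR-431-5p: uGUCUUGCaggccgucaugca
mmu-miR-431-3p: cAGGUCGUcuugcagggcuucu
mmu-miR-433-5p: uACGGUGAgccugucauuauuc
mmu-miR-433-3p: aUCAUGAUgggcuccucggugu
mmu-miR-127-5p: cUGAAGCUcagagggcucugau
mmu-miR-127-3p: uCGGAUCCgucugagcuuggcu
mmu-miR-434-5p: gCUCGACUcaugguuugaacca
mmu-miR-434-3p: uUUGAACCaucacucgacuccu
mmu-miR-136-5p: aCUCCAUUuguuuugaugaugg
mmu-miR-136-3p: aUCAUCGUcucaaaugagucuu

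The 10 seeds were all different, and none was shared with another mouse miRNA of the RefSeq table. The arms were 21 or 22 bases long, with a GC content between 36.4% for both arms of miR-136 and 59.1% for miR-431-3p and miR-127-3p. The 5 hairpins lie on the plus strand within 4942 bases. They are Mir431 at chr12:109590447-109590537, Mir433 at chr12:109591715-109591838, Mir127 at chr12:109592846-109592915, Mir434 at chr12:109594506-109594599 and Mir136 at chr12:109595327-109595388. The gene table of the same assembly placed all of them inside the span of Rtl1, together with 10 other miRNA genes. These were Mir673, Mir493, Mir337, Mir3544, Mir540, Mir665, Mir3070a, Mir3070b, Mir432 and Mir3071. Tested arms of miR-337, miR-540, miR-665 and miR-3070b are listed below under the Meg3 side, although their genes also lie inside this span.

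In the hairpins of miR-431 and miR-434 the opposite arms repeat part of one another. These runs are shown because an array tells arms apart by sequence alone. The longest run shared by the arms of miR-431 had 10 bases, shown here in capitals.
mmu-miR-431-5p: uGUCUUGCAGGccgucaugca
mmu-miR-431-3p: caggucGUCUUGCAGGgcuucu
In miR-434 the shared run had 9 bases, and the hairpin of 94 bases held it 3 times, once before the 5p arm.
Mir434 hairpin: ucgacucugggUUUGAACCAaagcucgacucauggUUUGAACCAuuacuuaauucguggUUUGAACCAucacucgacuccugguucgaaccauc
The arms of miR-433 and of miR-127 shared at most 5 bases and those of miR-136 at most 4. Among the 40 pairs of arms from different hairpins the longest shared run had 7 bases.

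Levels were read on Agilent arrays of 1 colour, 1 array per tumour, and are given as log2 of the scaled fluorescence signal. Scaling divided each array by the 75th percentile of the 294 mouse miRNAs that all 13 arrays detected, and values under a floor of 4.10 (log2) were raised to it. Because probes differ in brightness, the level of a miRNA can be compared between tumours but not with that of another miRNA. The arrays detected 338 to 469 mouse miRNAs, and no spot was saturated. The tumours were hybridised on a pair of slides, of which slide 1 held 5 deficient and 2 wild-type tumours and slide 2 held 2 deficient and 4 wild-type tumours. Each difference (log2, deficient minus wild type) is therefore also given after blocking on slide and for either slide alone, where 1 group has only 2 tumours. The test was limma over the 419 mouse miRNAs that at least 6 arrays detected, and a result passed at a Benjamini-Hochberg adjusted p under 0.05. In bulk tumour RNA, fewer cells that express a miRNA and less of it per cell cannot be told apart.

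None of the antisense miRNAs differed between the groups past the threshold. In limma, 0 of the 9 tested members passed an adjusted p of 0.05, where 0 of all 419 tested miRNAs passed (0%). At an unadjusted p under 0.05 there were also 0 members, where 16 of 419 miRNAs (3.82%) passed, 2.39% higher and 1.43% lower in deficient tumours. The mean was higher in deficient tumours for 4 of the 9 members, against 54.2% of all tested miRNAs, and lower for 5. The median difference of the members was −0.01 on the log2 scale, and that of all tested miRNAs was 0.04. The ranges of the groups overlapped for all 9, and of all tested miRNAs 0.239% had groups that did not overlap. The 95% interval of a difference had a median half-width of 0.414 over the members and 0.626 over all tested miRNAs.

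**Figure D1:**
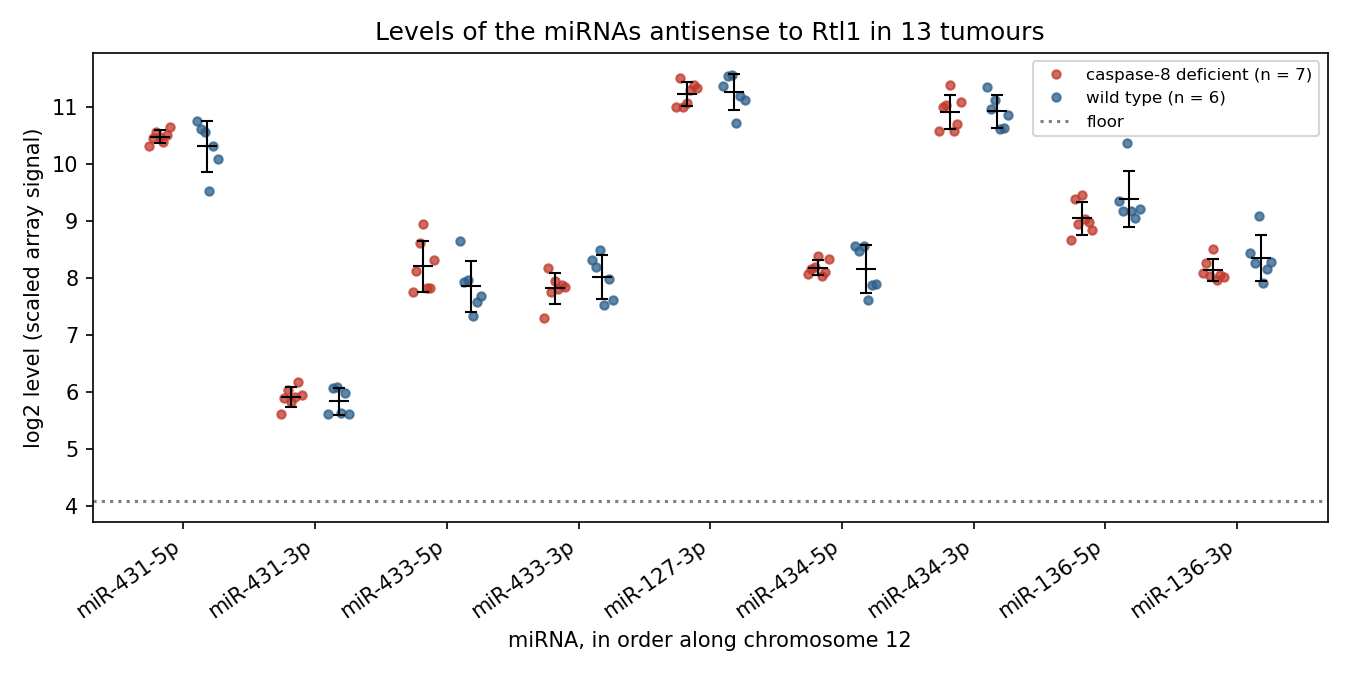
Log2 level of each of the 9 detected miRNAs (vertical axis) in caspase-8-deficient tumours (red, n = 7) and wild-type tumours (blue, n = 6). Points are tumours, bars are the mean ± SD, and the dotted line is the floor of 4.10. The groups overlap for every miRNA, and the heights of different miRNAs are not comparable.

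miR-431, the first of the hairpins along the plus strand, gave a product from each arm, and neither differed between the groups. miR-431-5p lay between 10.32 and 10.65 (median 10.47) in deficient tumours, and between 9.53 and 10.75 (median 10.43) in wild-type tumours. The deficient values all lay inside the wild-type range, whose low end was wild-type replicate 4. The means were 10.48 ± 0.11 (SD, n = 7) and 10.31 ± 0.45 (SD, n = 6), a difference of 0.17 (SE 0.195, 95% interval −0.25 to 0.59, limma adjusted p = 0.735). It was 0.05 after blocking on slide, −0.17 on slide 1 and 0.27 on slide 2, so its direction was not the same on both slides. Without wild-type replicate 4 it was 0.02. miR-431-3p was much closer to the floor, with 5.62 to 6.18 (median 5.91) in deficient tumours and 5.62 to 6.10 (median 5.81) in wild-type tumours. Its groups covered nearly the same range, with a difference of 0.08 (SE 0.157, 95% interval −0.26 to 0.42, limma adjusted p = 0.890). Of its 4 probes only 1 stayed above the floor in all tumours.

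miR-433, one of the miRNAs that guide cleavage of the Rtl1 transcript in the mouse, had arms with differences of opposite sign, and neither passed the threshold. miR-433-5p lay between 7.75 and 8.96 (median 8.13) in deficient tumours, and between 7.33 and 8.64 (median 7.81) in wild-type tumours. The ranges were shifted but overlapped widely. The means were 8.20 ± 0.45 (SD, n = 7) and 7.86 ± 0.45 (SD, n = 6), a difference of 0.35 or 1.27-fold (SE 0.254, 95% interval of the fold 0.872 to 1.86, limma adjusted p = 0.644). Blocking on slide gave 0.27, slide 1 alone −0.14 and slide 2 alone 0.71. The difference was 0.04 with array weights, 0.10 with normexp background correction and 0.22 without deficient replicate 4.

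The 3 tumours with the highest skeletal muscle miRNAs were also the 3 with the highest miR-433-5p. These were deficient replicate 4, deficient replicate 3 and wild-type replicate 1, with miR-433-5p at 8.96, 8.61 and 8.64. The 8 muscle markers on the array (arms of miR-1a, miR-133 and miR-206) had a summed level of 13.15, 11.88 and 11.82 in those tumours on the log2 scale, 6.68 to 13.15 over the deficient tumours and 7.42 to 11.82 over the wild-type tumours. Of the markers, 1 was detected on all arrays and 3 on none. Without these 3 tumours, an omission chosen after seeing the data, the difference in miR-433-5p was 0.27 (limma adjusted p = 0.650). Among the other tumours the match was poor. Wild-type replicates 6 and 4, next in muscle markers at 9.26 and 8.73, were 11th and 13th of the 13 in miR-433-5p. Deficient replicate 2 was 12th in muscle markers and 5th in miR-433-5p, while wild-type replicate 3 was 6th in both.

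miR-433-3p lay between 7.30 and 8.18 (median 7.85) in deficient tumours, and between 7.52 and 8.49 (median 8.09) in wild-type tumours. Here the deficient tumours lay somewhat lower. The means were 7.82 ± 0.27 (SD, n = 7) and 8.02 ± 0.39 (SD, n = 6), a difference of −0.20 (SE 0.201, 95% interval −0.63 to 0.23, limma adjusted p = 0.709). Blocking on slide gave −0.32, and the difference was negative on both slides, at −0.35 on slide 1 and −0.27 on slide 2. Without wild-type replicate 3 it was −0.11, without deficient replicate 1 it was −0.11, and without scaling between arrays it was −0.01. This arm also rested on 1 probe, since the other of its 2 probes was at or near the floor.

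From miR-127, whose deletion in the mouse alters the placental labyrinth, only the 3p arm was measured. miR-127-3p lay between 11.00 and 11.51 (median 11.29) in deficient tumours, and between 10.72 and 11.57 (median 11.28) in wild-type tumours. The medians almost coincided, and all deficient values lay inside the wild-type range. The means were 11.22 ± 0.20 (SD, n = 7) and 11.25 ± 0.32 (SD, n = 6), a difference of −0.03 or 0.980-fold (SE 0.177, 95% interval of the fold 0.754 to 1.27, limma adjusted p = 0.984). The difference was −0.14 after blocking on slide, −0.16 on slide 1 and −0.12 on slide 2. All of these share its sign and are larger in size. Its sign turned under other settings, to 0.17 without scaling between arrays, a setting that moved the median of all tested miRNAs to 0.22. miR-127-5p was not well above background on any of the 13 arrays, although 4 probes with 40 spots in all read it, and it was not tested.

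miR-434, whose arms share the repeat shown above, had the differences nearest to 0. miR-434-5p lay between 8.04 and 8.38 (median 8.15) in deficient tumours, and between 7.61 and 8.57 (median 8.18) in wild-type tumours. Its difference was 0.02 (SE 0.191, 95% interval −0.39 to 0.43, limma adjusted p = 0.993), and −0.07 with slide as a block. The wild-type tumours spread wider on both sides, with an SD of 0.42 against 0.13 in the deficient ones. miR-434-3p lay between 10.58 and 11.39 (median 10.99) in deficient tumours, and between 10.61 and 11.35 (median 10.91) in wild-type tumours. Its groups covered nearly the same range, with a difference of −0.01 (SE 0.189, 95% interval −0.42 to 0.39, limma adjusted p = 0.995). On slide 1 the differences were −0.36 for miR-434-5p and −0.28 for miR-434-3p, and on slide 2 they were 0.24 and 0.18, so that neither arm kept its direction.

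miR-136, the last of the hairpins along the strand, was the only one of the 4 with both arms tested whose means were lower in deficient tumours for both arms, and neither passed the threshold. miR-136-5p lay between 8.67 and 9.45 (median 8.98) in deficient tumours, and between 9.04 and 10.37 (median 9.19) in wild-type tumours. Deficient replicate 1 was the lowest tumour and wild-type replicate 3 the highest, with the next wild-type value at 9.34. The means were 9.04 ± 0.28 (SD, n = 7) and 9.38 ± 0.49 (SD, n = 6), a difference of −0.34 or 0.790-fold (SE 0.228, 95% interval of the fold 0.563 to 1.11, limma adjusted p = 0.641). Without wild-type replicate 3 the difference was −0.14, smaller by over 1.5 times. Blocking on slide gave −0.30, slide 1 alone −0.22 and slide 2 alone −0.39.

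miR-136-3p lay between 7.96 and 8.51 (median 8.04) in deficient tumours, and between 7.90 and 9.09 (median 8.27) in wild-type tumours. Wild-type replicate 3 was again the highest. The difference was −0.22 (SE 0.193, 95% interval −0.63 to 0.19, limma adjusted p = 0.668), and −0.07 without wild-type replicate 3. Within slide 1 it was −0.28 and within slide 2 it was −0.05.

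**Figure D2:**
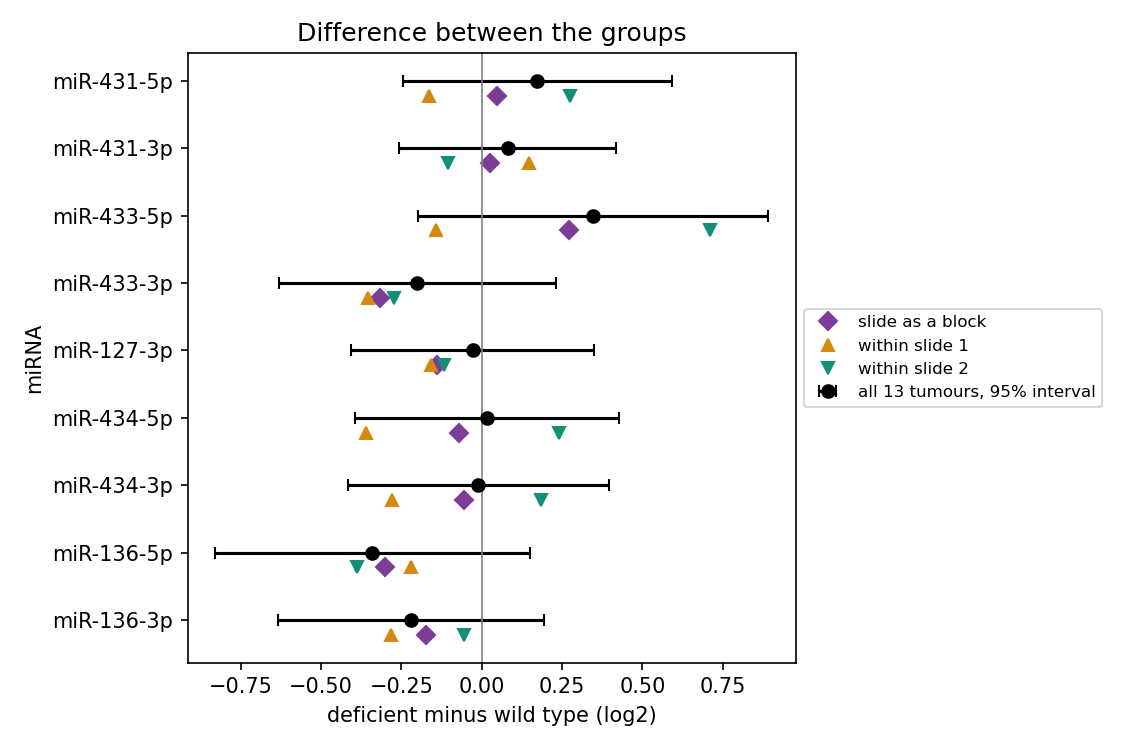
Difference between the groups for each miRNA (log2, deficient minus wild type), over all 13 tumours (black, with the 95% interval), blocked on slide (purple), and on slide 1 (orange) or slide 2 (green) alone. Every interval covers 0, and for 5 of the 9 miRNAs the slides differ in sign.

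The median of the members was lower after blocking on slide, but single members moved either way. With slide as a block 3 of 9 had a higher mean, and the median was −0.07, against 0.04 over all tested miRNAs. Within slide 1, 1 of 9 was higher in deficient tumours, with a median of −0.22, while 188 of the 419 tested miRNAs were higher there and their median was −0.04. Within slide 2, 4 of 9 were higher, with a median of −0.05, against 0.02 over all tested miRNAs, and 5 of the 9 differences were higher than over all tumours. Cell-type markers also differed on slide 1. There 0 of 6 neural and 0 of 4 tested muscle markers were higher in deficient tumours, with median differences of −0.55 and −1.56. In contrast, 5 of 5 stromal and 4 of 4 tested leukocyte markers were higher there, with medians of 0.71 and 0.66. On slide 2 the muscle and leukocyte markers went the other way, with 3 of 4 and 0 of 4 higher and medians of 1.71 and −0.19. There 2 of 6 neural and 4 of 5 stromal markers were higher, with medians of −0.16 and 0.20. On both slides 0 of 3 neuroendocrine, 2 of 2 erythroid and 2 of 2 endothelial markers were higher. The part of the marked cells in the values of either slide was not tested. The within-slide values rest on 2 wild-type tumours on slide 1 and 2 deficient tumours on slide 2, and the difference between the slides was not tested.

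The balance between the arms of a hairpin was compared as the 5p level minus the 3p level in each tumour, a quantity in which scaling between arrays cancels. Its size depends on the probes, so that only its difference between tumours is read. For miR-433 it lay between −0.06 and 1.00 (median 0.45) in deficient tumours, and between −0.51 and 0.33 (median −0.22) in wild-type tumours. The 5p arm was thus shifted up relative to the 3p arm in deficient tumours, with overlap between the groups. The means were 0.384 ± 0.433 (SD, n = 7) and −0.163 ± 0.313 (SD, n = 6), a difference of 0.55 (SE 0.211, 95% interval 0.09 to 1.00). With a limma adjusted p of 0.366 over 66 hairpins it did not pass the threshold. In limma 0 of the 66 hairpins with both arms tested passed (0%), and 6 (9.09%), miR-433 among them, had an unadjusted p under 0.05.

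The miR-433 value was higher in deficient tumours on both slides, by 0.21 within slide 1 and 0.99 within slide 2, and was 0.59 with slide as a block. Deficient replicates 4 and 3, which had the highest muscle markers, also had the highest arm values, 1.00 and 0.85. The match was partial. Wild-type replicate 1, next in muscle markers, had 0.33, below deficient replicate 7 at 0.47 and deficient replicate 1 at 0.45. Deficient replicate 1 had the lowest muscle markers of all. Without the 3 tumours with the highest muscle markers the difference was 0.43 (limma adjusted p = 0.362). With normexp background correction, which adds an offset, it was 0.27, less than the main value by over 1.5 times.

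The other hairpins had smaller differences in this balance, and none passed the threshold. The difference was 0.09 (SE 0.163) for miR-431 with a limma adjusted p of 0.750. It was 0.03 (SE 0.125) for miR-434, with an adjusted p of 0.925. For miR-136 it was −0.12 (SE 0.120), with an adjusted p of 0.671. Within the groups the balance of miR-136 and miR-434 varied little, with a residual SD of 0.184 and 0.195, the 6th and 9th lowest of the 66 hairpins. That of miR-431 was 0.283 and that of miR-433 was 0.383, the 18th and 30th lowest. miR-127 gave no pair, since its 5p arm was not detected.

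**Figure D3:**
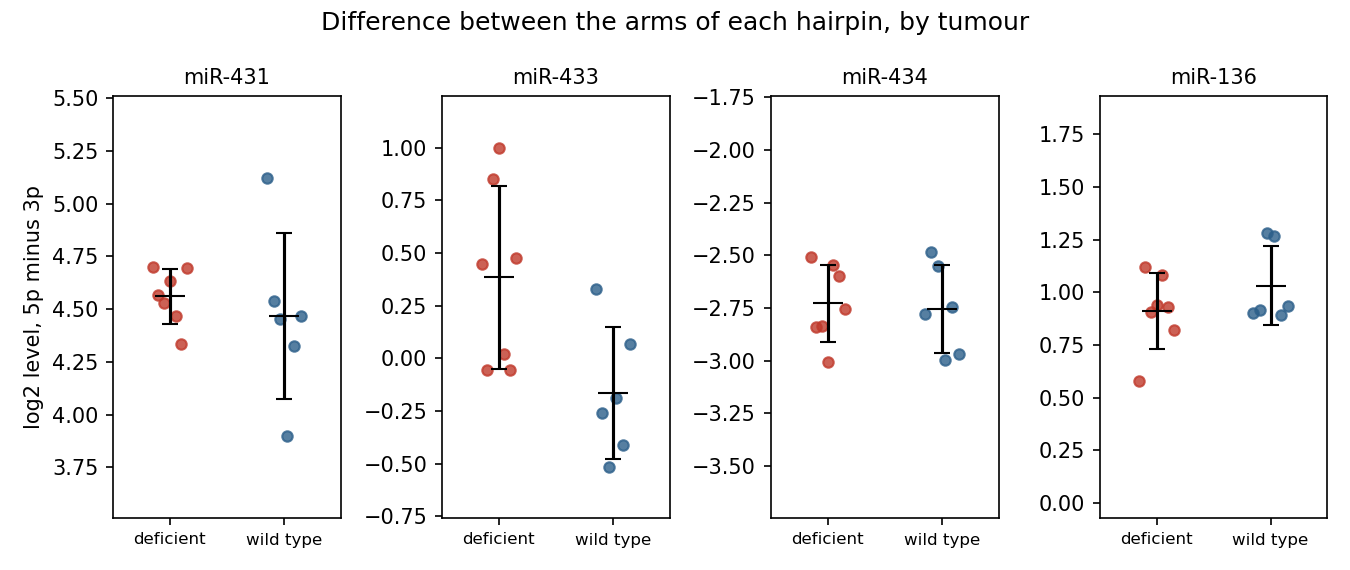
Log2 level of the 5p arm minus that of the 3p arm of 4 hairpins in deficient tumours (red, n = 7) and wild-type tumours (blue, n = 6), with the mean ± SD. Each panel has its own vertical axis of equal span. The groups are shifted for miR-433, with means of 0.384 and −0.163, and nearly level for miR-434.

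Within the groups the antisense miRNAs varied less between tumours than most miRNAs. Their residual SD, with the group means taken off, had a median of 0.305, against 0.538 over all tested miRNAs, and all 9 lay below that. The median was 0.308 for the tested miRNAs of the miR-379 to miR-410 cluster and 0.344 for those of the Meg3 side, both near that of the antisense miRNAs. All 9 were detected on every array, which was not so for all tested miRNAs. The median over the 294 miRNAs detected on all arrays was not taken. miR-431-3p varied least, and 98.8% of tested miRNAs had a larger residual SD. It was the tested member closest to the floor, although no value of it was raised to the floor. Whether its low signal narrowed its range was not tested. For miR-127-3p, far above the floor, 92.8% had a larger one. The widest were miR-136-5p and miR-433-5p, where 67.3% and 59.9% had a larger one. From the lowest to the highest of the 13 tumours the level changed by 1.47-fold for miR-431-3p and by 3.25-fold for miR-136-5p. The 2 probes of miR-136-5p correlated over the tumours with r = 0.996, and the probes of miR-434-5p, the lowest such value, with r = 0.864.

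The tumours could be ordered by the mean of the 9 miRNAs, each centred on its own mean, and both groups spread over this order. In deficient tumours this mean was −0.29 in replicate 1, −0.13 in replicate 5, −0.04 in replicate 6, 0.02 in replicate 3, 0.04 in replicate 7, 0.11 in replicate 2 and 0.22 in replicate 4. In wild-type tumours it was −0.44 in replicate 4, −0.18 in replicate 6, −0.14 in replicate 5, 0.13 in replicate 2, 0.27 in replicate 1 and 0.42 in replicate 3. The wild-type tumours thus held both the lowest and the highest tumour. In wild-type replicate 3 all 9 miRNAs were above their own median over the tumours, and in wild-type replicate 4, deficient replicate 1 and deficient replicate 5 none was.

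Markers of other cells varied between the tumours, and some of them along this order. Neural miRNAs (arms of miR-9, miR-124, miR-128, miR-129 and miR-153), of which 5 of 6 were detected on all arrays, had a summed log2 level of 10.30 to 10.74 in deficient and 10.08 to 11.24 in wild-type tumours. Their lowest and highest values were in wild-type replicates 4 and 3, the lowest and the highest tumour for the antisense miRNAs. The deficient tumours followed this order only in part. Deficient replicate 4, highest of its group for the antisense miRNAs, also had the highest neural level of its group, 10.74. Deficient replicate 1, lowest of its group for the antisense miRNAs, had 10.73, and deficient replicate 3 had the lowest of its group, 10.30. The erythroid markers, both detected on all arrays, ranged from 14.28 to 16.35 in deficient and from 12.28 to 16.08 in wild-type tumours. They were lowest in wild-type replicate 3 and highest in deficient replicate 1. The 5 leukocyte markers, 3 of them detected on all arrays, ranged from 9.67 to 12.03 in deficient and from 9.43 to 12.52 in wild-type tumours. All 3 neuroendocrine markers were detected on all arrays, at a summed level of 11.53 to 12.95 in deficient and 12.12 to 13.20 in wild-type tumours. The stromal markers ranged from 9.69 to 11.11 in deficient and from 9.96 to 11.37 in wild-type tumours, and the endothelial markers from 10.12 to 12.13 in deficient and from 10.57 to 11.48 in wild-type tumours. Over the 13 tumours the correlation of the summed marker level with the mean of the 9 miRNAs was 0.740 for neural, 0.337 for muscle and 0.301 for neuroendocrine markers. It was −0.639 for leukocyte, −0.596 for erythroid, −0.385 for stromal and −0.370 for endothelial markers. Single neural markers differed, with r = 0.785 for miR-124-3p, 0.611 for miR-129-5p, 0.517 for miR-153-3p and 0.337 for miR-128-3p. The arms of miR-9 went the other way, with −0.114 for miR-9-5p and −0.144 for miR-9-3p. These values share arrays and scaling with the miRNAs. The part of these cells in the order of the tumours was not tested.

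**Figure D4:**
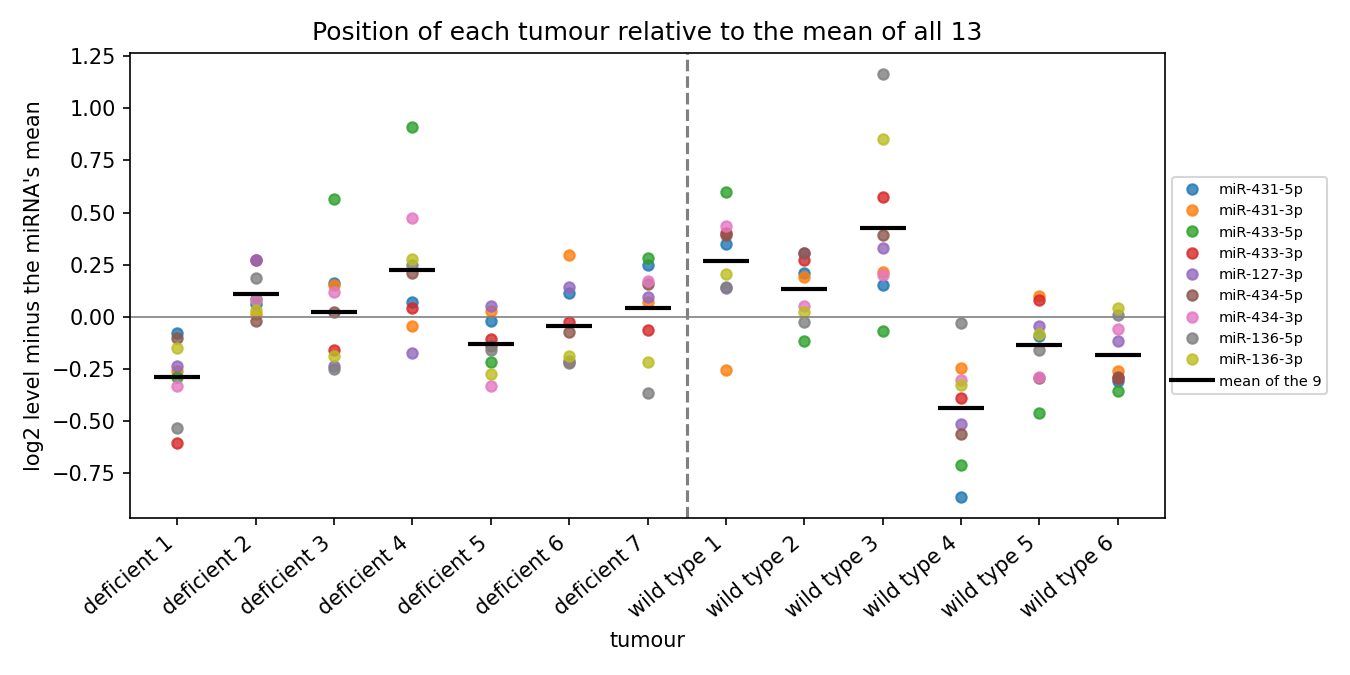
Log2 level of each of the 9 miRNAs minus its mean over all 13 tumours (vertical axis), for the deficient tumours at the left of the dashed line and the wild-type tumours at the right. Black bars are the mean of the 9, which runs from −0.44 in wild-type replicate 4 to 0.42 in wild-type replicate 3.

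The 9 tested antisense miRNAs tended to move together across the tumours, though not all of them closely. The correlation of a member with the mean of the other members ran from 0.356 for miR-431-3p to 0.894 for miR-434-5p. Over the 13 tumours Pearson's r was above 0 for all 36 pairs of the 9 miRNAs, with a median of 0.528 and a range of 0.0416 to 0.905. The median was 0.588 with the group means taken off and 0.755 without scaling between arrays, which every miRNA of an array shares. Over all pairs of tested miRNAs, some of them not detected on every array, the median r was near 0. The highest value belonged to the arms of miR-136. The arms of miR-434 correlated with r = 0.783, those of miR-431 with 0.491 and those of miR-433 with 0.366. Some arms of different hairpins were as close, with 0.870 for miR-433-5p and miR-434-3p and 0.860 for miR-431-5p and miR-434-5p. These values describe 13 tumours that share arrays, slides and cell make-up.

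The 5 miRNAs most like the mean of the 9 came from the same chromosomal domain, but not every miRNA of that domain was alike. By Pearson's r over the 13 tumours, the 5 most alike of the 410 other tested miRNAs were miR-382-5p (0.931), miR-409-5p (0.928), miR-410-3p (0.923), miR-376a-3p (0.889) and miR-300-3p (0.886). All 5 belong to the miR-379 to miR-410 cluster. Of the 20 most alike, 15 were in the Dlk1-Dio3 lists, which held 52 of the 410, and the number was also 15 with the group means taken off. The median r was 0.651 for the miR-379 to miR-410 cluster and 0.422 for the Meg3 side. It was −0.114 for the tested miRNAs outside these lists. Of the tested arms on the Meg3 side, only miR-770-3p comes from a gene outside the span of Rtl1. The lists do not hold every miRNA of the domain: miR-341-3p, with r = 0.721, and miR-370-3p, with 0.297, also belong to it. miR-432, whose gene lies between those of miR-434 and miR-136, had r = −0.288, the 319th highest of the 410. It was close to the floor and detected on only 8 of the 13 arrays. Some arms of the cluster far above the floor also had r below 0, among them miR-3072-5p (−0.555), miR-134-5p (−0.213) and miR-494-3p (−0.210). Spearman's rank correlation was −0.313 for miR-3072-5p and −0.308 for miR-494-3p. For miR-134-5p it was 0.258, so the sign there depended on the measure. The other 5 of the 20 were miR-345-5p, whose gene is also on chromosome 12, miR-324-5p, miR-218-5p, miR-331-3p and the neuronal miR-124-3p.

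**Figure D5:**
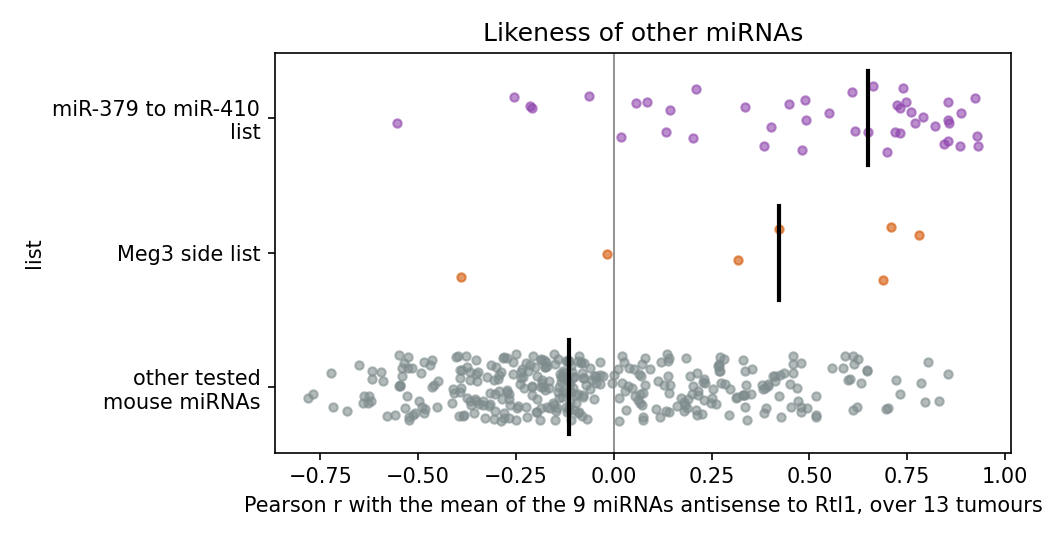
Pearson's r over 13 tumours (horizontal axis) between each other tested mouse miRNA and the mean of the 9 antisense miRNAs, for the miR-379 to miR-410 list, the Meg3 side list and all other tested miRNAs. Points are miRNAs and black lines are medians, which lie at 0.651, 0.422 and −0.114.

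No other tested miRNA of the imprinted domain passed the threshold either. Of the 73 arms of the miR-379 to miR-410 cluster on the array, 45 were tested, 30 with a higher and 15 with a lower mean in deficient tumours, and 0 passed in limma, with 0 at an unadjusted p under 0.05. Their median difference was 0.09, and it was 0.02 with slide as a block. Within slide 1 the median was −0.20, with 6 of 45 higher in deficient tumours, and within slide 2 it was 0.18, with 34 higher. The members and the cluster thus both had more lower than higher means within slide 1. On the Meg3 side 4 of 7 were higher within slide 1, with a median of 0.02. Most of these arms also come from genes inside the span of Rtl1.

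On the Meg3 side, 7 of 17 arms were tested, 3 with a higher and 4 with a lower mean, and 0 passed in limma, with 0 at an unadjusted p under 0.05. The 3 brightest were miR-337-3p, miR-337-5p and miR-770-3p. miR-337-3p averaged 9.74 in deficient and 9.81 in wild-type tumours, a difference of −0.07 (limma adjusted p = 0.915). The difference was −0.17 for miR-337-5p (adjusted p = 0.668) and −0.22 for miR-770-3p (adjusted p = 0.810). Outside chromosome 12, miRNAs of other imprinted genes had lower means in deficient tumours for 6 of 6 tested, with a median of −0.25. Over all tested miRNAs 192 of 419 were lower, with a median of 0.04. The 6 were both arms of miR-335 and of miR-483, miR-296-5p and miR-298-5p, so they are not independent, and no arm of miR-675 was tested. In limma 0 of the 6 passed, with 0 at an unadjusted p under 0.05.

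Between the hairpins of miR-434 and miR-136 the gene table also held Mir432 and Mir3071, which were looked at after their values were seen. miR-432 was close to the floor and was detected in 6 of 7 deficient and 2 of 6 wild-type tumours. It averaged 5.86 ± 0.84 (SD, n = 7) in deficient and 5.09 ± 0.77 (SD, n = 6) in wild-type tumours. The difference of 0.77 (SE 0.416) did not pass the threshold, with a limma adjusted p of 0.589. Both arms of miR-3071 were detected in no tumour.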

How the data were processed

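Per the labels, Trizol total RNA was labelled with Cy3. The deposited scanner files hold linear spot intensity, from which the authors' scanner software had subtracted background per the file headers, and arrays were not scaled to one another. The headers name Agilent Feature Extraction 10.7.3.1 and the submitters' processing notes 10.5.1.1. Detection and outlier marks, deposited as other yes or no values, served as filters. The authors' deposited series matrix, an alternative, holds log2 values with a column median of 3.82. All 13 columns matched their own array best, with slopes of 0.898 to 0.999 against the scanner values that set its scale, and its background step stays unknown.

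Each array had 47604 spots, and the 2164 controls were left out. Spots with outlier marks were dropped, the others averaged per probe, and probe means added up per miRNA. After scaling, values under 17.2 (percentile 1 of detected values) were set to that floor before log2. limma 3.58.1 (lmFit and eBayes) ran in R 4.3.3 with version 1.17.8 of data.table, two-sided, and was tested on simulated data. The number of arrays limits the precision, and p-values measure the spread between these tumours. All members were named, other miRNAs by their correlation with the members' mean (the 5 highest) or by brightness (3 on the Meg3 side). Members, lists and tests were chosen with earlier results of these data known. Same-numbered tumours did not clearly deviate together (r from −0.220 to 0.194), and the main test treats them as unpaired. These values cannot exclude a pairing. The array design names mm9, and hairpin positions are of GRCm38.p6. Alternatives concerned scaling, background, probe summary, detection, floor, the variance model, weights, slides, replicate numbers, the series matrix and single tumours.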

Additional observations from a re-analysis of the deposited data

Results flagged for a closer look

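Of 26 groups of values checked (9 miRNAs and 4 arm differences, in each group of tumours), 1 held a tumour far from the rest, and chance flags about 1 in 20. miR-136-5p was at 10.37 in wild-type replicate 3, and the next wild-type value was 9.34. This gap was 0.774 of the range of the group. The 2 probes of miR-136-5p had nearly equal differences between the groups, −0.35 and −0.34.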

How the results depend on the processing

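In limma 0 members and 0 of all tested miRNAs passed the threshold under all 30 alternatives, and the smallest adjusted p was 0.418 for a member and 0.0644 for any miRNA. The members at an unadjusted p under 0.05 were 0 or 1, and all tested miRNAs 7 to 63. The differences of miR-433-3p, miR-136-5p and miR-136-3p kept their sign under all 30. Differences that changed sign were the following, and the cause was not tested. On slide 1 alone they were −0.165 for miR-431-5p, −0.141 for miR-433-5p, −0.359 for miR-434-5p, −0.311, −0.0811 and 0.0631 for the arms of miR-431, miR-434 and miR-136. On slide 2 alone they were −0.106 for miR-431-3p and 0.183 for miR-434-3p, and with slide as a block −0.0695 for miR-434-5p and −0.0141 for the arms of miR-434. Array weights gave −0.0228 for miR-431-5p and −0.168 for miR-434-5p. Normexp, run on median spot signals, gave −0.0918 for miR-431-3p, −0.0320 for miR-434-5p and −0.0174 for the arms of miR-434. The mean of log2 probe levels gave −0.0300 for miR-434-5p and −0.00451 for the arms of miR-434, and the series matrix −0.00838 for miR-434-5p. A percentile over all miRNAs gave 0.0169 for miR-127-3p and 0.0342 for miR-434-3p. No scaling gave 0.165 and 0.182 for the same miRNAs, beside a median of 0.218 over all tested miRNAs. The total gene signal gave 0.0101 for miR-434-3p, and leaving out the 3 muscle-rich tumours gave 0.0729 for miR-127-3p.

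Leaving out 1 tumour gave −0.135 to 0.0340 for miR-127-3p, −0.0939 to 0.0973 for miR-434-5p, −0.0913 to 0.0743 for miR-434-3p, −0.0210 to 0.223 for the arms of miR-431 and −0.0203 to 0.0816 for the arms of miR-434. It changed the sign of no other member or arm difference. The range was 0.0183 (without wild-type replicate 4) to 0.261 for miR-431-5p, 0.0364 to 0.132 for miR-431-3p, 0.221 to 0.504 for miR-433-5p, −0.300 to −0.107 for miR-433-3p, −0.408 to −0.144 for miR-136-5p and −0.309 to −0.0732 for miR-136-3p.

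With the replicate number as a block, in which deficient replicate 7 has no partner and drops out, 0 members passed (smallest adjusted p 0.692) and miR-434-5p was −0.00836. The arm test then called 3 of 66 hairpins, miR-466f, miR-466i and miR-574, named after their values were seen, none antisense to Rtl1.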
